A study of Mus musculus with 2 samples.

Results

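Mbnl2-bound RNA was examined over 4 genes that encode ankyrins or an obscurin relative, *Ank1*, *Ank2*, *Ank3* and *Obsl1*, out of 22380 protein-coding genes in the mm9 GENCODE vM1 annotation. The genes were taken by name, and a tag counted for a gene when it overlapped the annotated gene on the gene's own strand. Together they held 380 of the 820097 tags in the 2 tables. The tags came from HITS-CLIP, in which protein and RNA are crosslinked by UV light, the RNA is trimmed with RNase A, and the fragments that precipitate with an antibody are sequenced and mapped as short tags. The antibody was mAb 3B4 against Mbnl2, a muscleblind-like protein that binds pre-mRNA and mRNA. The material was quadriceps muscle of mice aged 15 to 16 weeks, labelled C57BL/6, whereas the study's methods name C57BL/129 for the heterozygotes crossed to obtain compound knockouts. WT mice were compared with *Mbnl1* KO mice (Mbnl1-/-), whose allele deletes exon 3 (ΔE3) in the germline and so in all tissues. The comparison asks where Mbnl2 tags were found in muscle when Mbnl1 was present and when it was missing.

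Each genotype was represented by 1 table in which the tags of 3 mice had been merged. RNase A was used at a high and a low concentration, and the tables do not tell these apart. No test between genotypes was therefore possible. Differences are given as the *Mbnl1* KO/WT ratio of tag counts per 1000000 tags of the table (CPM), with an exact 95% Clopper-Pearson interval that covers counting error only and compares these 2 tables. The tables held 343554 WT and 476543 *Mbnl1* KO tags, so that 3 tags, the most that a count of 0 allows, corresponded to 8.73 and 6.30 CPM. The tables also differed in make-up, since 44.0% of WT tags and 17.0% of *Mbnl1* KO tags lay on reference sequence of which at least 70% was a single base. These are called single-base tags here. The WT tags were collapsed from 5176203 reads and the *Mbnl1* KO tags from 50329234, so sequencing depth differed as well. The CPM used here scale to tags and not to reads. Across the 3888 protein-coding genes with at least 20 pooled tags the median ratio was 1.75, or 1.48 across 3307 genes when single-base tags were left out. Tissue markers showed muscle, with 312 WT and 1016 *Mbnl1* KO tags over 6 muscle fibre genes, while 6 erythroid genes held 9 and 9 tags, 6 neuronal genes 53 and 71, 5 Schwann cell genes 13 and 59, and 4 endothelial genes 61 and 113. Tags follow both the amount of an RNA and its binding by Mbnl2, and these 2 quantities cannot be told apart here. The study also reported raised Mbnl2 protein in *Mbnl1* KO muscle, including the Mbnl2 precipitated from quadriceps for HITS-CLIP. How far this enters the ratios was not tested.

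Ankyrins are adaptor proteins that hold membrane proteins to the spectrin skeleton beneath the membrane. *Ank1* encodes ankyrin-R of the red cell and, from an internal promoter near its 3′ end, small muscle ankyrins that sit in the membrane of the sarcoplasmic reticulum and bind obscurin and titin. *Ank2* encodes ankyrin-B, which places ion transporters and channels in heart and other tissues, and *Ank3* encodes ankyrin-G, which gathers sodium channels at the axon initial segment and is also present in muscle. *Obsl1* encodes obscurin-like 1, a protein of the sarcomeric M band that binds titin and myomesin. MBNL proteins bind RNA that holds YGCY tetramers, often in introns beside alternative exons and in 3′ UTRs.

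Of the sites in these genes, 7 runs of overlapping tags (clusters) held at least 5 pooled tags. The sequences of 5 are shown, as sites that the accounts of *Ank1*, *Ank3* and *Obsl1* below describe, and *Ank2* had none of this size. Each is the mm9 reference on the gene's strand, 5′ to 3′, either the whole cluster or the 30 bases with the deepest tag coverage, and capitals mark YGCY tetramers, in which Y is a pyrimidine (the word CGCC, the word CGCT, or either word with T as its opening letter, where neighbouring words may overlap). The first is the tallest cluster, in the *Ank1* 3′ UTR (window chr8:24260764-24260793, plus strand), the second lies in *Ank1* intron 30 (chr8:24224993-24225015, plus), the third and the fourth in the *Ank3* 3′ UTR (chr10:69487696-69487725 and chr10:69487323-69487347, plus) and the last in coding exon 9 of *Obsl1* (chr1:75489484-75489504, minus).
Ank1 3′ UTR: gctgcagtctgcaccttagaCGCTttttag
Ank1 intron 30: cccatgatcctctgggagaatga
Ank3 3′ UTR, larger: caggggggaaaTGCTTGCCactgtagaagt
Ank3 3′ UTR, smaller: cgcaaaacTGCTagcttgattttaa
Obsl1 exon 9: ccggggagtatgtatgtgaga
Both strands of the mm9 chromosomes were searched, and each of these sequences occurred 1 time. The 3 sequences from 3′ UTRs held at least 1 YGCY tetramer and those from *Ank1* intron 30 and *Obsl1* held none. Counted over whole clusters, 4 of the 7 contained the motif (57.1%), next to 4146 of the 7376 clusters of at least 5 tags on the strand of all protein-coding genes (56.2%).

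*Ank1* (ENSMUSG00000031543.11, chr8:24085316-24260969, plus strand, mm9) held 15 WT and 91 *Mbnl1* KO tags (43.7 and 191 CPM). The ratio was 4.37 (95% interval 2.52 to 8.13), higher than that of 92.1% of the 3888 genes. Of the 3 members with at least 20 pooled tags, *Ank1* was the 1 whose ratio reached 2, a level that 41.6% of all tested genes reached. No *Ank1* tag in either table was a single-base tag. With such tags removed from both totals the ratio was 2.99 (1.72 to 5.55), and 29.1% of genes then reached 2. On the opposite strand of the same span there were 8 WT and 9 *Mbnl1* KO tags, with a ratio of 0.811 (0.278 to 2.42).

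The rows of each merged table were found to run through the chromosomes more than 1 time, in 3 sorted stretches for WT and 6 for *Mbnl1* KO. The stretches carry no label, so they were treated as pieces of a table and not as mice or as replicates. *Ank1* had 21.3, 28.7 and 63.7 CPM in the WT stretches. In the *Mbnl1* KO stretches it had 133, 173, 80.2, 239, 259 and 280 CPM. Every *Mbnl1* KO stretch was above every WT stretch, as was the case for 10% of the 3888 genes. Each value rested on few tags, from 1 to 10 in WT and from 2 to 22 in *Mbnl1* KO. The third WT stretch held 10 of the 15 WT tags, and without it the ratio was 7.13. Some tags had the same position in several *Mbnl1* KO stretches, and 59 of the 91 *Ank1* tags (64.8%) shared their exact position with a tag in another stretch. Counted as distinct positions, *Ank1* had 13 in WT and 56 in *Mbnl1* KO, and the ratio was 3.36 (1.81 to 6.69). With identical tags collapsed and single-base tags left out together it was 2.36 (1.27 to 4.70).

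**Figure D1:**
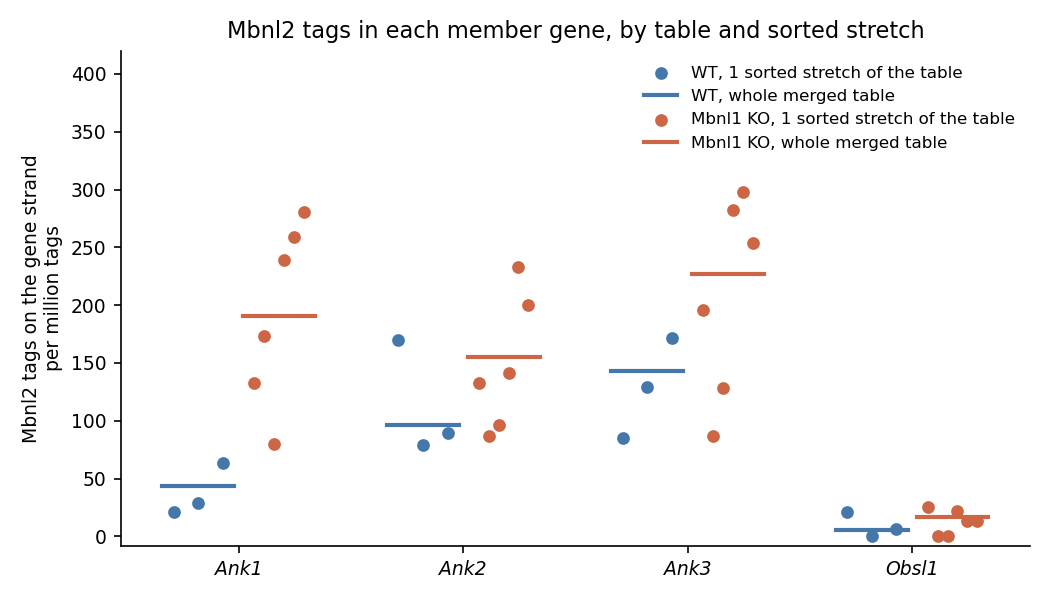
Mbnl2 tags on the gene strand in CPM (vertical axis) for the 4 genes, with WT in blue and *Mbnl1* KO in orange. Points are the unlabelled sorted stretches of each table and lines the whole merged table. For *Ank1* all 6 *Mbnl1* KO points, from 80.2 to 280, lie above the 3 WT points, from 21.3 to 63.7, while the points overlap for the other genes.

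Within *Ank1* the tags were found at the 3′ end and in a few introns. The annotation gives 3 coding transcripts that start in the last 25% of the gene, the short muscle transcripts, which together span chr8:24249502-24259751. This span held 3 WT and 28 *Mbnl1* KO tags, with a ratio of 6.73 (2.08 to 34.6). The value was 2.92 (0.836 to 15.6) under the combined filter, which collapsed identical tags and dropped single-base ones, and with the first 3 *Mbnl1* KO stretches alone it was 3.45 (0.788 to 20.7). Without the second WT stretch it was 4.00 and without the third 10.96. The span had 21.3, 0 and 12.7 CPM in the WT stretches and 31.6, 86.5, 16.0, 97.7, 64.8 and 93.5 in the *Mbnl1* KO stretches, which overlapped. The exons of the short transcripts alone held 2 and 16 (5.77, 1.36 to 51.7), and their first exon region held none in either table. The rest of the gene held 12 WT and 63 *Mbnl1* KO tags, with a ratio of 3.78 (2.02 to 7.71). The intervals of the 2 regions overlapped.

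The rest of the gene had unlike pieces. The 164 kb before the short transcripts, which only longer transcripts cover, held 5 WT and 19 *Mbnl1* KO tags, 0.146 tags per kb, with a ratio of 2.74 (0.989 to 9.39). The last 1.22 kb of the gene, after the annotated ends of the short transcripts (chr8:24259752-24260969), held 7 and 44 tags, 41.9 per kb, with a ratio of 4.53 (2.02 to 11.9). That piece is annotated as 3′ UTR of longer transcripts, and a 24-base tag in a shared last exon cannot be assigned to a long or a short transcript. From the first start of the short transcripts to the end of the gene there were 10 WT and 72 *Mbnl1* KO tags, 7.15 per kb, with a ratio of 5.19 (2.67 to 11.3). This 3′ end of 11.5 kb therefore held 82 of the 106 *Ank1* tags.

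All exonic *Ank1* tags lay in the last exon, exon 48 (chr8:24258753-24260969, 2217 nt), in its 3′ UTR part, with 9 WT and 60 *Mbnl1* KO tags and a ratio of 4.81 (2.37 to 11.02). No tag fell in the coding sequence or the 5′ UTR. The 3′ UTR ratio of *Ank1* was above that of 78.5% of the 868 genes with at least 20 pooled 3′ UTR tags. Of those genes 86.6% had a 3′ UTR ratio of at least 2, and their median was 3.24. The tallest cluster (chr8:24260686-24260822) contained 6 WT and 39 *Mbnl1* KO tags and 5 YGCY tetramers, with a ratio of 4.69 (1.97 to 13.5). It had 0, 7.16 and 31.9 CPM in the WT stretches and 63.1, 86.5, 48.1, 86.8, 104 and 120 in the *Mbnl1* KO stretches. A smaller cluster beside it (chr8:24260845-24260890) held 1 and 4 tags, and its stretch values overlapped. Before these clusters, in the part of the exon that the short transcripts share, the tags were spread over runs of at most 4.

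**Figure D2:**
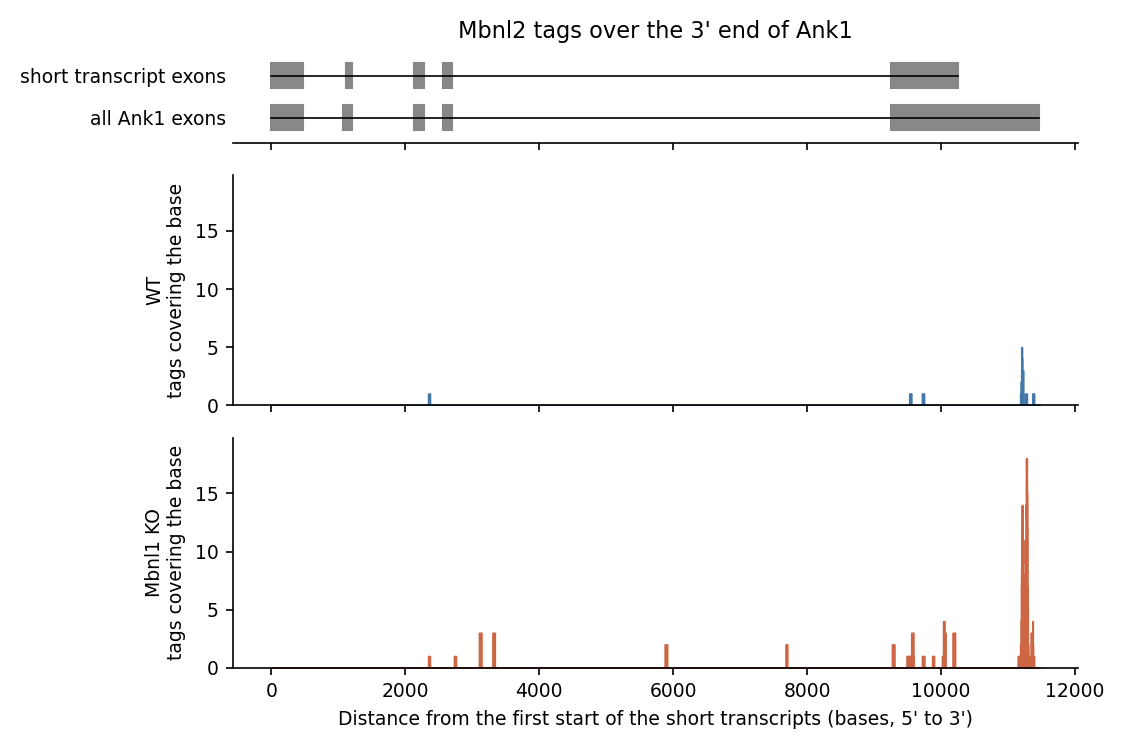
Number of tags that cover each base at the 3′ end of *Ank1*, against the distance in bases from the first start of the short transcripts, with WT in blue and *Mbnl1* KO in orange on the same vertical scale. Grey boxes are exons. The tallest peak in both tables lies near the end of the gene, beyond the annotated end of the short transcripts, and holds 6 WT and 39 *Mbnl1* KO tags.

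The *Ank1* introns held 6 WT and 31 *Mbnl1* KO tags, with a ratio of 3.72 (1.53 to 10.9). That was higher than the intron ratio of 95.4% of the 2477 genes with at least 20 pooled intron tags, of which 22.1% had a ratio of at least 2. This rank counts repeated tags, which lay at 5 WT and 19 *Mbnl1* KO positions. The introns had 0, 21.5 and 19.1 CPM in the WT stretches. In the *Mbnl1* KO stretches they had 37.9, 0, 16.0, 86.8, 104 and 107, so that the sets overlapped. Only 6 of the 47 introns held a tag, and 3 held at least 5. The last of them, intron 47 (chr8:24252193-24258752), which lies within the span of the short transcripts, held 0 WT and 11 *Mbnl1* KO tags. It is named because its *Mbnl1* KO tags alone passed the minimum of 5, so this count is a description. Among these were 2 clusters of 3 tags, 412 and 614 bases after the exon before it, each of them 1 position repeated in 3 *Mbnl1* KO stretches. This exon (chr8:24252068-24252192, 125 nt) was kept by 9 and skipped by 5 of the 14 coding transcripts that run across it. The clusters contained 1 and 2 YGCY tetramers and are shown for their place beside an alternative exon.
Ank1 intron 47, nearer: agagatccagcTGCCtctgtactggaatta
Ank1 intron 47, farther: tgttctgagaacaaggcTGCTCGCTtgat
In the 291 nt of intron 46, before the same exon, there was 1 WT and 1 *Mbnl1* KO tag. Intron 30 (chr8:24224643-24225252, 610 nt) held 2 WT and 9 *Mbnl1* KO tags (3.24, 0.671 to 30.9), all in the cluster without YGCY shown above, which lies 350 bases after one exon and 237 bases before the next. Its *Mbnl1* KO tags were 3 in each of the stretches 4, 5 and 6 and 0 in the other 3, and they repeated 4 positions. Intron 1, the longest at 59837 nt, held 3 and 6 tags. Within 500 nt of an exon lay 3 of the 6 WT and 14 of the 31 *Mbnl1* KO intron tags (45.2%), against 21.3% of the intron bases and 18.4% of *Mbnl1* KO intron tags in all protein-coding genes. The intron 30 cluster made up 9 of these 14, and without it 5 of 22 *Mbnl1* KO intron tags (22.7%) and 1 of 4 WT intron tags lay that near to an exon.

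*Ank2* (ENSMUSG00000032826.8, chr3:126624525-127111949, minus strand) held 33 WT and 74 *Mbnl1* KO tags (96.1 and 155 CPM). The ratio of 1.62 (1.06 to 2.52) was higher than that of 44.9% of the 3888 genes, close to the median of 1.75. *Ank2* had 170, 78.8 and 89.2 CPM in the WT stretches and 133, 86.5, 96.3, 141, 233 and 200 in the *Mbnl1* KO stretches. These overlapped, since the highest WT value exceeded 4 of the *Mbnl1* KO values. The antisense strand held 28 and 33 tags (0.850, 0.498 to 1.46), so that for WT the tags on the gene's strand were hardly more than those opposite. Scaled to tags on the strand of protein-coding genes, the *Ank2* ratio was 1.00 (0.657 to 1.56).

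Most *Ank2* tags were intronic, 27 of 33 in WT (81.8%) and 61 of 74 in *Mbnl1* KO (82.4%), and were dispersed over 19 of the 58 introns. The intron ratio was 1.63 (1.02 to 2.67). Intron 2, the longest, held 7 and 19 tags, intron 1 held 7 and 3, and intron 4 held 3 and 7. Intron 5 held 2 and 6. Intron 32 (chr3:126679866-126682173) held 0 WT and 7 *Mbnl1* KO tags and intron 47 held 0 and 5. Both are named because of their *Mbnl1* KO tags and are a description. A cluster of 3 *Mbnl1* KO tags at 1 repeated position in intron 32 (chr3:126680007-126680031), 141 bases before the next exon, contained a TGCT and was the nearest to an exon of the *Ank2* intron clusters with at least 3 tags.
Ank2 intron 32: ttggcTGCTgggcagagacctgggt
Of the *Ank2* intron tags, 2 of 27 in WT (7.41%) and 15 of 61 in *Mbnl1* KO (24.6%) lay within 500 nt of an exon, where 10.5% of the intron bases lie. Over all protein-coding genes 17.2% of WT and 18.4% of *Mbnl1* KO intron tags did so. No *Ank2* cluster reached 5 tags. The exon of 6198 nt (chr3:126644528-126650725), which encodes the insert of the giant neuronal ankyrin-B, held 0 WT and 1 *Mbnl1* KO tag. The last exon held 3 and 7 tags (1.68, 0.384 to 10.1), and the 3′ UTR 3 and 8 (1.92, 0.461 to 11.3).

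*Ank3* (ENSMUSG00000069601.5, chr10:68996970-69490184, plus strand) had the most tags of the 4 genes, 49 in WT and 108 in *Mbnl1* KO (143 and 227 CPM). The ratio was 1.59 (1.12 to 2.28), higher than that of 44.1% of genes. *Ank3* had 85.1, 129 and 172 CPM in the WT stretches and 196, 86.5, 128, 282, 298 and 254 in the *Mbnl1* KO stretches. Of the latter, 4 were above all WT values and 2 were among them. The antisense strand held 29 and 38 tags (0.945, 0.567 to 1.59). Scaled to tags on the strand of protein-coding genes, the *Ank3* ratio was 0.986 (0.697 to 1.41).

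Within *Ank3* the ratio of the 2 tables was 4.61 in the 3′ UTR and 1.22 in the introns, with intervals that overlapped slightly. The 3′ UTR, all within the last exon, exon 46 (chr10:69486580-69490184), held 5 WT and 32 *Mbnl1* KO tags, with a ratio of 4.61 (1.78 to 15.2). The introns held 43 and 73 tags, with a ratio of 1.22 (0.828 to 1.83). The share of *Ank3* tags in the 3′ UTR was 10.2% in WT (95% interval 3.40 to 22.2%) and 29.6% in *Mbnl1* KO (21.2 to 39.2%). All protein-coding genes together had the same order, with 16.5% of WT and 29.9% of *Mbnl1* KO tags in 3′ UTRs, and pooled ratios of 2.93 (2.88 to 2.99) for 3′ UTRs and 1.24 (1.23 to 1.25) for introns. The *Ank3* 3′ UTR ratio was above that of 75.9% of the 868 genes, and the intron ratio above that of 45.7% of the 2477 genes. In the WT stretches the *Ank3* 3′ UTR had 0, 7.16 and 25.5 CPM. In the *Mbnl1* KO stretches it had 37.9, 0, 16.0, 86.8, 142 and 80.1, so that the sets overlapped, the value of 0 coming from the smallest stretch with 11563 tags.

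The larger of the *Ank3* 3′ UTR clusters shown above (chr10:69487688-69487734) held 2 WT and 14 *Mbnl1* KO tags and 3 YGCY tetramers, with a ratio of 5.05 (1.16 to 45.7). The WT tags lay in 1 stretch (12.7 CPM), and 2 *Mbnl1* KO stretches held none, so that the stretch values overlapped. The smaller, upstream of it in the same exon (chr10:69487323-69487347), held 3 and 2 tags (0.481, 0.0401 to 4.20), the WT tags being no fewer. Within 1 exon, sites with the motif had unlike tag numbers in the 2 tables, although their intervals overlapped. The third *Ank3* cluster (chr10:69126046-69126086, intron 1) held 5 WT and 2 *Mbnl1* KO tags on a run of A, and 6 of these 7 were single-base tags. Intron 1, with 251240 nt the longest of the gene, held 23 and 37 tags (1.16, 0.671 to 2.04). Intron tags within 500 nt of an exon were 2 of 43 in WT and 8 of 73 in *Mbnl1* KO (10.96%), where 8.25% of intron bases lie. Intron 44 held 1 and 6 tags, intron 29 and intron 45 each 3 and 2, and intron 39 2 and 3.

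**Figure D3:**
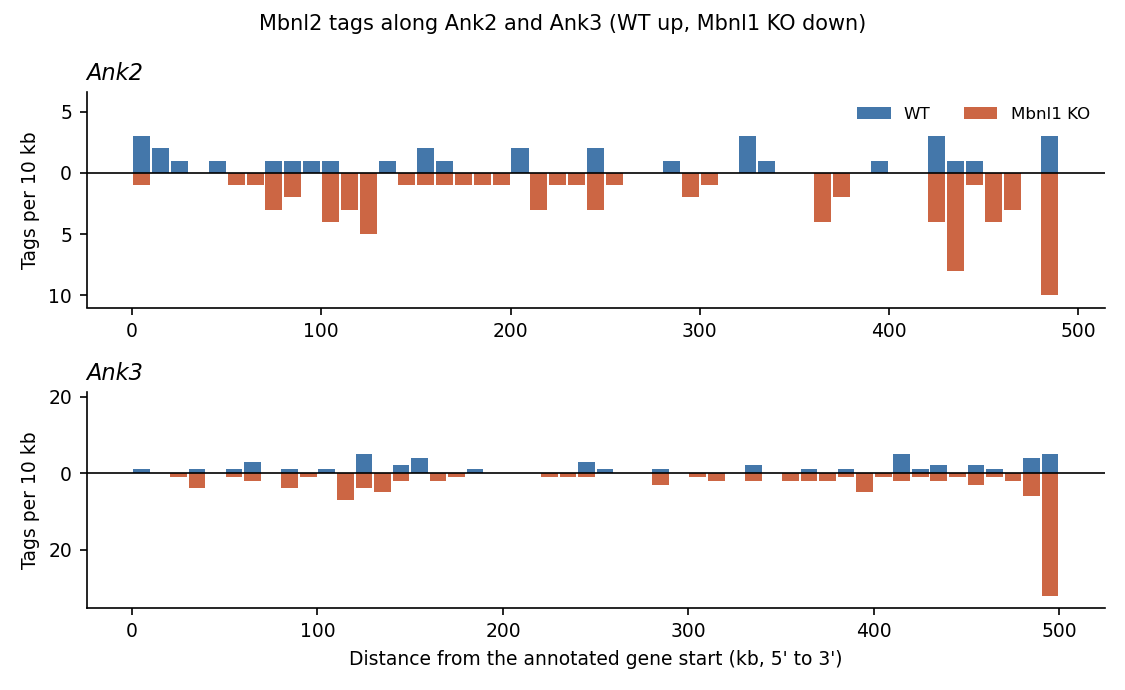
Number of tags in each 10 kb of *Ank2* and *Ank3*, against the distance in kb from the annotated gene start, with WT drawn upward and *Mbnl1* KO downward. Tags are scattered along *Ank2*, and in *Ank3* the last bin holds the most *Mbnl1* KO tags, 32, and 5 WT tags, a number that 2 other bins also reach.

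*Obsl1* (ENSMUSG00000026211.10, chr1:75475885-75503027, minus strand) held 2 WT and 8 *Mbnl1* KO tags (5.82 and 16.8 CPM), below the minimum of 20 used for the comparison with other genes. The WT level was under the 8.73 that a count of 0 allows. The ratio of 2.88 had an interval from 0.575 to 27.9, so that no difference was detectable at this depth. The WT stretches had 21.3, 0 and 6.37 CPM and the *Mbnl1* KO stretches 25.2, 0, 0, 21.7, 13.0 and 13.4, which overlapped. Exon 9 (chr1:75489445-75489720), which is coding, held 0 WT and 5 *Mbnl1* KO tags, all in the cluster shown above. They lay at 2 positions in 4 stretches and comprised 7 reads. This exon and its cluster are named because their *Mbnl1* KO tags alone passed the minimum of 5, so the count is a description. The interval of the exon's ratio began at 0.661. No tag fell in the 3′ UTR. The introns held 2 and 3 tags.

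**Figure D4:**
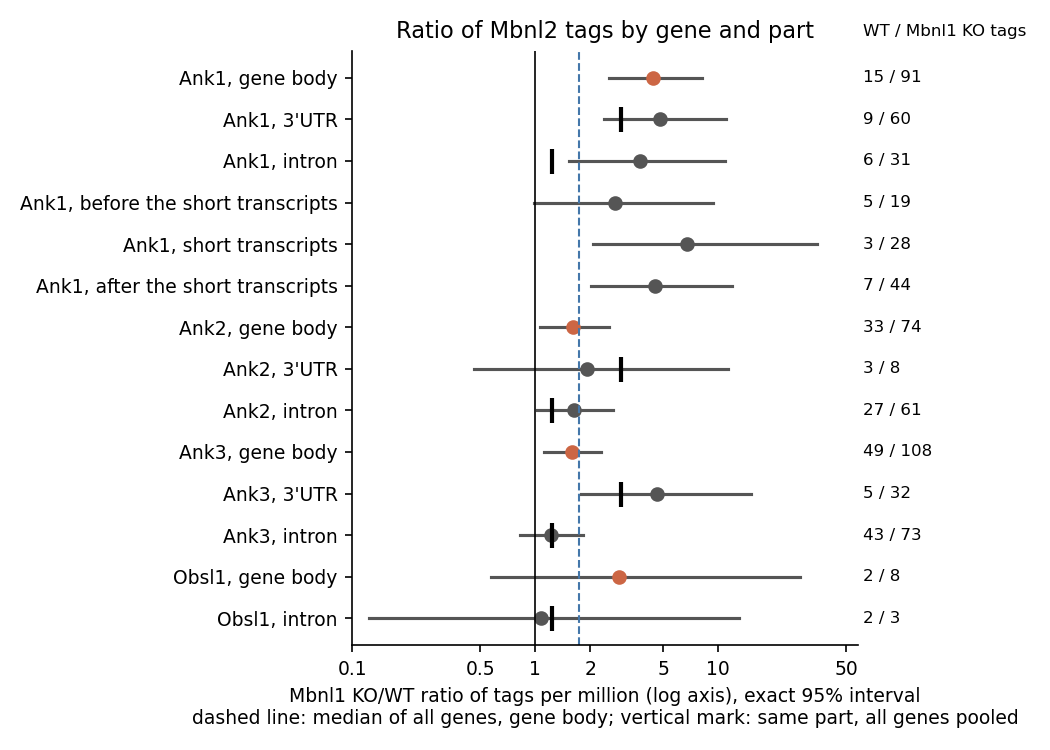
*Mbnl1* KO/WT ratio of CPM on a log axis for each gene and its parts, with the exact 95% interval as a bar and the WT and *Mbnl1* KO tags at the right. The dashed line is the median of 3888 genes, 1.75, and vertical marks are the pooled ratio of the same part over all genes, 2.93 for 3′ UTRs and 1.24 for introns. The *Ank1* gene body bar lies wholly above the dashed line, and those of the *Ank2* and *Ank3* gene bodies lie above 1 and cross the dashed line.

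Levels per kb of annotated gene, introns included, are averages that depend on intron length and on where the tags lie. In WT they were 0.289 CPM for *Ank3*, 0.249 for *Ank1*, 0.214 for *Obsl1* and 0.197 for *Ank2*. In *Mbnl1* KO they were 1.09 CPM per kb for *Ank1*, 0.618 for *Obsl1*, 0.459 for *Ank3* and 0.319 for *Ank2*. *Ank1* was the highest in *Mbnl1* KO. The WT order turned on single-base tags, since without them *Ank1* had 0.0854 and *Ank3* 0.0750 WT tags per kb. The *Obsl1* levels rested on 2 and 8 tags. The share of tags in the 3′ UTR was 60.0% in WT (32.3 to 83.7%) and 65.9% in *Mbnl1* KO (55.3 to 75.5%) for *Ank1*, and 9.09% (1.92 to 24.3%) and 10.8% (4.78 to 20.2%) for *Ank2*. In *Mbnl1* KO the intervals of *Ank1*, *Ank3* and *Ank2* did not include one another's shares.

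**Figure D5:**
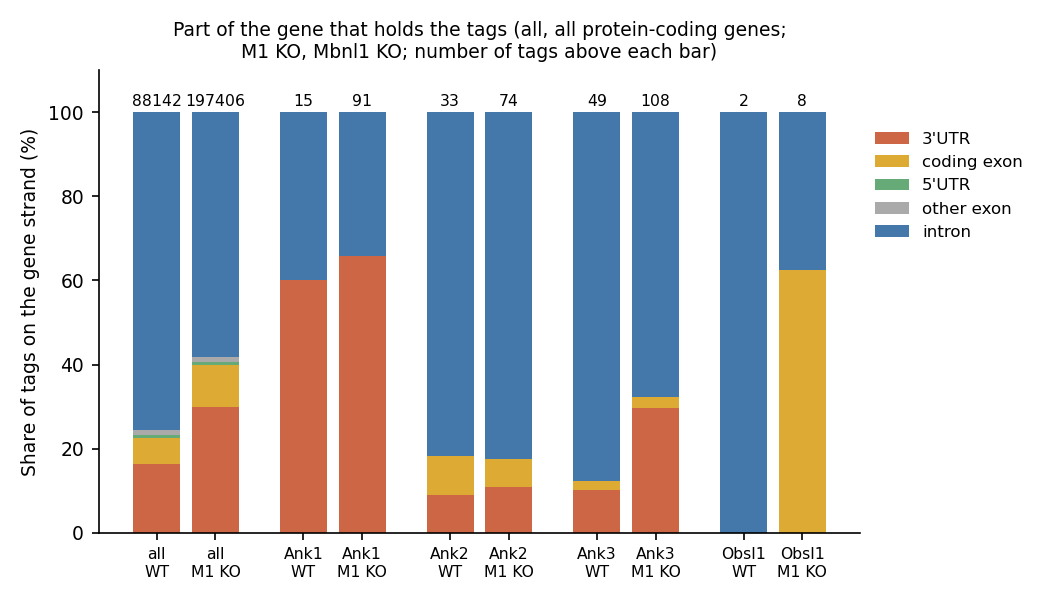
Share of the tags on the gene strand, in percent, that lie in each part of the gene, for all protein-coding genes and for the 4 genes in WT and *Mbnl1* KO (M1 KO), with the number of tags above each bar. *Ank1* tags are mostly in the 3′ UTR in both tables, *Ank2* tags mostly in introns, and the 3′ UTR share of *Ank3* is 10.2% in WT and 29.6% in *Mbnl1* KO.

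YGCY tetramers were looked for in the reference sequence of each tag on the gene's strand. They were present in 8 of 15 WT (53.3%, 26.6 to 78.7%) and 60 of 91 *Mbnl1* KO tags of *Ank1* (65.9%, 55.3 to 75.5%). *Ank3* had 40.8% (27.0 to 55.8%) and 57.4% (47.5 to 66.9%), and *Ank2* 27.3% (13.3 to 45.5%) and 41.9% (30.5 to 53.9%). *Obsl1* had 1 of 2 and 3 of 8. Over all tags on the strand of protein-coding genes the shares were 34.4% and 50.1%, and 45.8% and 53.5% without single-base tags. Counted over distinct positions, the motif was in 7 of 13 WT and 38 of 56 *Mbnl1* KO positions of *Ank1* (67.9%). Tags at repeated positions or in the same cluster are not independent, and the *Ank1* tags lay in 3′ UTRs more often than those of all genes, so that no enrichment of the motif in *Ank1* is read from these shares.

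Genes whose tags were nearest to those of each member were found by the distance between log2 CPM in the 2 tables, with 0.5 tag added, among the 3888 genes. *Ank1* was nearest to *Synm* (15 WT and 93 *Mbnl1* KO tags), which encodes the intermediate filament protein synemin, to *Myl1* (15 and 89), a myosin light chain of fast muscle, and to *Gpam* (16 and 91), an enzyme of glycerolipid synthesis. *Ank2* was nearest to *Col4a1*, *Diap2* and *Plcl1*, and *Ank3* to *Magi1*, *Dock4* and *Aldoa*. For *Obsl1*, with fewer than 20 tags itself, the minimum left out genes with as few tags, and the nearest genes lay 1.12 away. With 2 values per gene, such neighbours share tag numbers and no more is read from them.

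Genes whose products act with these proteins were counted in 3 lists. Of 15 obscurin and titin partners, 9 had at least 20 pooled tags and 6 of these (66.7%) a ratio of at least 2, beside 41.6% of all genes tested, with a median of 2.58 beside 1.75. With single-base tags left out 3 of the 9 (33.3%) had such a ratio, beside 29.1% of all genes. With all tags the 6 were *Cul3* (5.48), a ubiquitin ligase scaffold that acts on small ankyrin 1, *Nbr1* (3.12), *Myom2* (2.94) and *Myom1* (2.64), which encode M band proteins that bind obscurins, *Ttn* (2.58), which encodes titin, and *Atp2a1* (2.42), the calcium pump of the sarcoplasmic reticulum. *Cul7* and *Ccdc8*, which encode proteins that act with obscurin-like 1 in the 3M complex, held 0 WT and 2 *Mbnl1* KO tags each.

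Of 16 spectrin skeleton genes, 11 had at least 20 tags and 6 of them (54.5%) a ratio of at least 2, beside 41.6% of all genes, with a median of 2.13 beside 1.75. With single-base tags left out 4 of the 11 (36.4%) had such a ratio, beside 29.1%, and the median was 1.52 beside 1.48, with *Sptbn1* at 1.52 and *Epb4.1l2* at 1.55. With all tags *Sptan1* (αII-spectrin) had a ratio of 3.36 (1.78 to 6.90), *Epb4.1* (protein 4.1R) 3.35, *Add3* (γ-adducin) 2.50, *Tmod3* (tropomodulin 3) 2.48, *Sptbn1* (βII-spectrin) 2.21 (1.56 to 3.18) and *Epb4.1l2* 2.13. The other end was *Sptbn4* (βIV-spectrin), a partner of ankyrin-G at nodes, with 15 WT and 10 *Mbnl1* KO tags (0.481, 0.193 to 1.14). Of 19 genes of proteins that ankyrins hold in place, most of them in the membrane, 11 had at least 20 tags and 5 of these (45.5%) a ratio of at least 2, which is near the 41.6% of all genes, with a median of 1.91. With single-base tags left out 2 of the 11 (18.2%) had such a ratio, beside 29.1% of all genes. Among the 5 were *Atp1b1* (2.71), a subunit of the sodium pump, *Scn4a* (3.24), the muscle sodium channel, *Slc8a1* (2.42), the sodium-calcium exchanger, and *Itpr1* (2.01), a calcium release channel. *Slc4a1*, the red cell anion exchanger to which ankyrin-R binds, held no tag in either table.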

How the data were processed

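Reads were filtered for quality and aligned to mm9 with BWA by the authors (version not given in the sources used here), who removed potential PCR duplicates and merged 3 mice per genotype. The deposited value of each tag is a count of the reads collapsed into it, without normalization. Tags were 18 to 33 nt long (median 24), although the study's methods state a higher minimum, and 79.0% of WT and 59.5% of *Mbnl1* KO tags comprised 1 read. Each tag was counted 1 time whatever its reads. Of the tags, 4.24 to 49.7% per *Mbnl1* KO stretch and 12.3 to 23.7% per WT stretch shared their exact position with a tag in another stretch of the same table.

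Tags overlapping GENCODE vM1 genes (mm9) on their strand were counted (pandas 2.3.3, numpy 2.4.6, pysam 0.24.0 under Python 3.11.15) and divided by all tags of the table. Intervals were computed with scipy 1.17.1, and on simulated data 96.8% of 3888 held the true ratio. The simulated counts were independent, without repeated positions or differences between mice, so this checks the calculation only. A tag over several parts was assigned to the 3′ UTR, then the coding sequence, the 5′ UTR, other exons and introns. Exons were merged over transcripts and numbered along the gene. The 4 genes were named in full, with clusters, exons and introns of at least 5 tags, listed genes with at least 20 tags and a ratio of at least 2, and the 3 nearest genes; smaller clusters and other genes named were chosen after their values were seen. The 16 spectrin genes included 6 matched by older symbols of a RefSeq table. Some listed genes are counted but not reported by name here. Members and lists were chosen with earlier results of these data known. Alternatives were other tag filters, scalings and region borders.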

Additional observations from a re-analysis of the deposited data

How the results depend on the processing

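Ratios were recomputed with other tag filters, scalings and region borders, and without sorted stretches. Counting tags by midpoint and leaving out tags over another gene returned the main counts for every ratio. Raw tag counts removed only the scaling and raised every ratio. These settings therefore could not fail where the main value passed, although the counts of settings below include them. The settings on stretches, the combined filter, the short region extended to the gene end and the gene before that region alone were chosen after seeing the data. All 19 settings tried for the *Ank1* gene body gave a ratio of at least 2 and an interval above 1, with 2.36 the lowest, from collapsing identical tags and leaving out single-base tags together, and 7.13 the highest. The first 3 *Mbnl1* KO stretches alone gave 2.76 and the last 3 gave 5.91. The short transcript region kept a ratio of at least 2 in all 22 settings, and in 20 its interval lay above 1, the exceptions being the combined filter (2.92) and the first 3 *Mbnl1* KO stretches (3.45). The *Ank1* body outside the short transcripts had 1.92 (0.461 to 11.3) when transcripts starting in the last 50% of the gene were taken as short. Only 11 tags then remained outside. Scaling to tags on the strand of protein-coding genes gave 2.71 (1.56 to 5.05) for *Ank1*, 1.00 for *Ank2* and 0.986 for *Ank3*. The interval lay above 1 in 9 of 19 settings for *Ank2* and in 13 of 19 for *Ank3*. The *Obsl1* interval included 1 in all 19 settings.

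Leaving out 1 stretch at a time gave 3.54 to 7.13 for the *Ank1* gene body, 4.00 to 10.96 for its short transcript region, 3.27 to 6.17 for its remaining body, 1.44 to 1.84 for *Ank2*, 1.49 to 1.92 for *Ank3* and 1.71 to 4.98 for *Obsl1*. WT stretch 3, which held 10 of the 15 WT tags of *Ank1*, gave 7.13, 10.96 and 6.17 when left out, and WT stretch 2 gave 4.00 for the short transcripts and 1.71 for *Obsl1*. WT stretch 1 left out gave the 4.98 for *Obsl1*. No paired analysis was possible because the mice are merged in 1 table per genotype. Depth limits *Obsl1*, many single introns and other parts with few tags, with at most 11 tags at each *Ank1* intron.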
